A study of Homo sapiens with 6 samples.

Results

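The genes described here belong to the integrated stress response. They are the kinases EIF2AK1, EIF2AK2, EIF2AK3 and EIF2AK4, the transcription factors ATF4, ATF3 and DDIT3, and the outputs CHAC1, ASNS and GDF15. The rule took those with a feature in the array annotation used, which left 9 of 10 genes, each with 1 feature, out of 14884 genes with a symbol. CHAC1 had none and was not analysed here. Gene expression had been measured on 6 Affymetrix arrays of HCT-8, a human colon cancer line grown in DMEM. On 3 of them the cells stably expressed TRIB3-shRNA, a short hairpin RNA against TRIB3, and on 3 they expressed Control-shRNA. Both populations had been made by plasmid transfection, followed from 24 hours by hygromycin for 14 days, and were used as uncloned pools after a few passages. Their hairpins are the only difference between the groups that the labels give, and no agent that induces stress is named for either. The labels do not say whether same-group arrays came from separate cultures, so the p-values below measure only the spread between these arrays, which may be technical. Every value is an RMA signal in log2 units, and a level is given only to compare arrays for the same gene.

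Cells under stress phosphorylate the translation initiation factor eIF2, which lowers protein synthesis while letting a few messages, that of ATF4 among them, be translated better. Each kinase reads another signal: EIF2AK1 (HRI) heme shortage and mitochondrial stress, EIF2AK2 (PKR) double-stranded RNA, EIF2AK3 (PERK) unfolded protein in the endoplasmic reticulum, and EIF2AK4 (GCN2) uncharged tRNA. ATF4 then induces genes for amino acid supply and further transcription factors, and TRIB3 is one of its targets and a feedback inhibitor of ATF4 and of CHOP, the product of DDIT3. Most of this pathway is switched by phosphorylation and translation, which an RNA array does not measure.

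TRIB3 was read first, as the target of the hairpin, and its signal was higher where a knockdown would lower it. Its signal was 8.40 ± 0.11 (SD, n = 3) on the arrays labelled TRIB3-shRNA and 7.33 ± 0.17 (SD, n = 3) on the control arrays, which is 2.09-fold higher (limma adjusted p = 0.0041). Why TRIB3 was higher was not tested. Higher and lower below describe the arrays with the TRIB3-shRNA label against the controls. Each direction therefore depends on labels that the TRIB3 signal does not bear out. Array medians over all genes ran from 5.62 to 5.70 and the 25th percentiles from 4.26 to 4.36. Of 10 measured colon epithelial markers, 0 had a mean below the average of those percentiles, against 3 of 4 fibroblast and endothelial markers and 1 of 3 leukocyte markers. The epithelial markers KRT20, CDX1 and TSPAN8 were themselves called higher on the arrays labelled TRIB3-shRNA. Before adjustment 5 of the 10 were higher and 1 lower at p under 0.05, the lower one being VIL1 (-0.44, limma adjusted p = 0.0631). By contrast, 0 of the 7 markers of other cells passed limma's test in either direction and 0 had an unadjusted p under 0.05. Of all 14884 genes 9.64% passed, and before adjustment 1887 were higher and 2396 lower at p under 0.05.

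Signal of 3 of the 4 kinases and of DDIT3 and ASNS fell, and GDF15 rose. EIF2AK2 fell 2.23-fold, DDIT3 and EIF2AK3 each 2.05-fold, ASNS 1.96-fold and EIF2AK4 1.59-fold, while GDF15 rose 1.69-fold. EIF2AK1, ATF4 and ATF3 did not pass the test. In such pools, fewer cells expressing a gene and less RNA of it per cell cannot be told apart. Of the 9 genes, 6 passed an adjusted p of 0.05 in limma's test over all 14884 genes, 5 of them lower and 1 higher. Among all genes 9.64% passed, 6.39% lower and 3.25% higher. The median log2 fold change was -0.67 over the 9 genes and 0.04 over all genes. The arrays of the groups did not overlap for 8 of the 9 genes, against 32.0% of all genes (15.6% lower and 16.4% higher). The 9 genes were chosen with earlier results of these data known, so these shares are descriptive and do not test the pathway. The count of 6 rested on particular arrays: without Control-shRNA replicate 1 or 2 it was 2, DDIT3 and ASNS. Without TRIB3-shRNA replicate 1 or 2 it was 3, with EIF2AK2 added. Calls over all 14884 genes dropped in the same fits, from 1435 to 261 and 199 without Control-shRNA replicate 1 and 2. They were 507 and 372 without TRIB3-shRNA replicate 1 and 2.

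**Figure D1:**
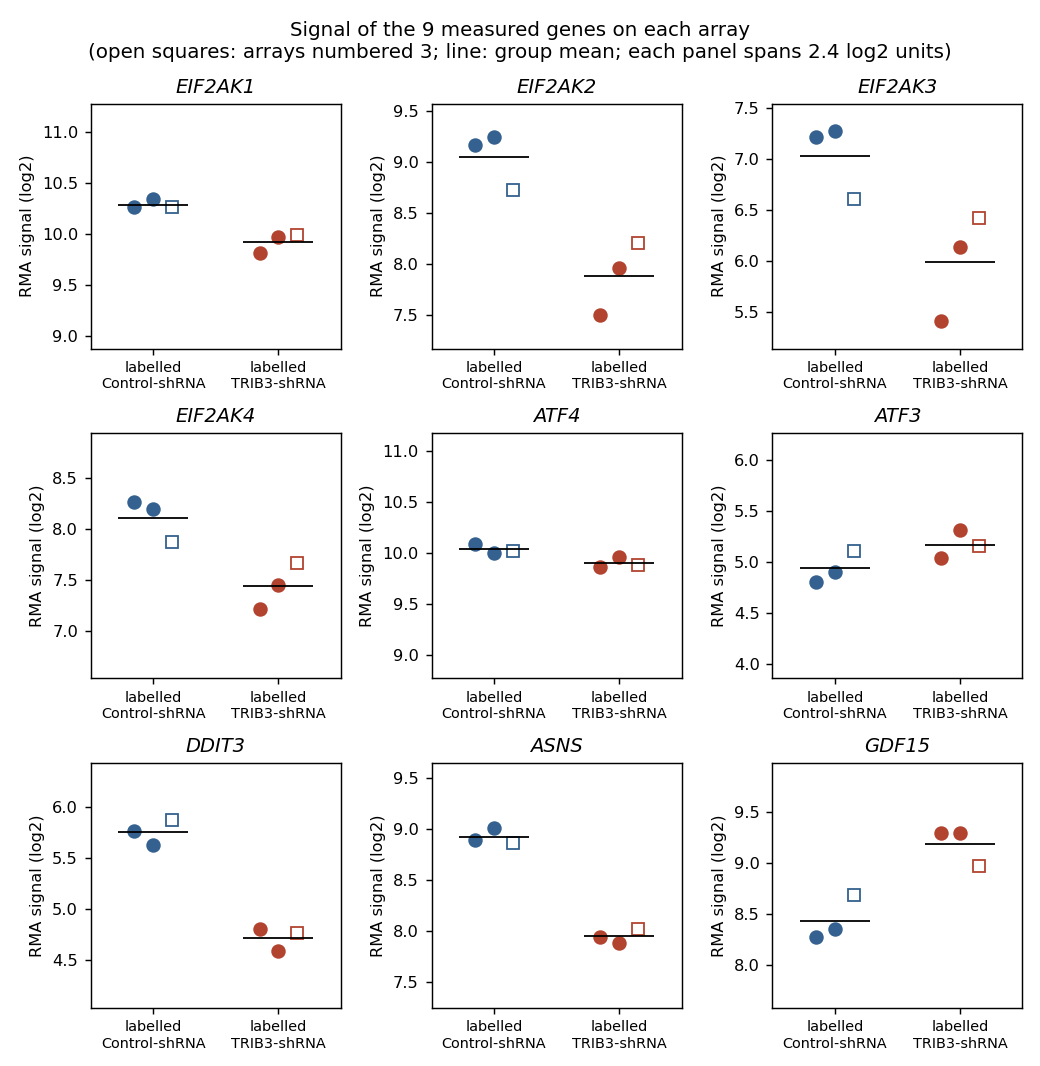
RMA signal (log2) of each of the 9 measured genes on every array, by labelled group, with a line at the group mean and open squares for the arrays numbered 3. ATF3 is the only gene of the 9 whose groups overlap, and each panel covers the same 2.4 log2 units.

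**Figure D2:**
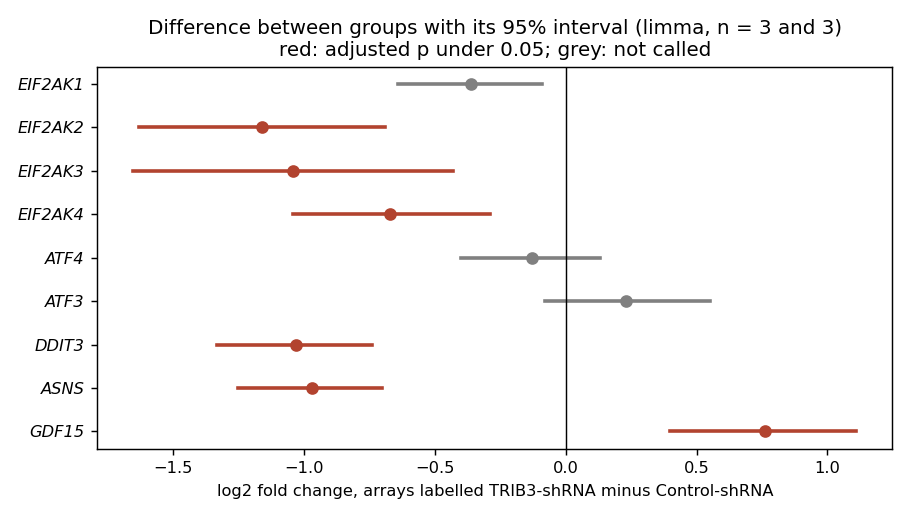
Difference between groups on the log2 scale (TRIB3-shRNA minus Control-shRNA, 3 arrays each) with limma's 95% interval, which is not adjusted for the number of genes. The 6 called genes are red, and the intervals of ATF4 and ATF3 include 0.

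Among the kinases, EIF2AK2 had the largest difference. PKR, its product, binds double-stranded RNA and is itself induced by interferon. It read 7.50, 7.96 and 8.21 on the arrays labelled TRIB3-shRNA and 9.17, 9.25 and 8.73 on the control arrays. Every array of the former group lay below every one of the latter, and the closest were those numbered 3. The log2 fold change was -1.16 (SE 0.21, limma adjusted p = 0.0142). It was not called without Control-shRNA replicate 1 (adjusted p = 0.069) or 2 (adjusted p = 0.0743), and its 19 alternatives ranged from 0.0018 to 0.0743.

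EIF2AK3, the kinase of the endoplasmic reticulum membrane, read 5.41, 6.14 and 6.42 on the arrays labelled TRIB3-shRNA and 7.21, 7.27 and 6.61 on the control arrays. The groups did not overlap, but its spread was the widest of the 9 genes in both groups, with SDs of 0.52 and 0.37. Its log2 fold change was -1.04 (SE 0.27, limma adjusted p = 0.0458), close to the threshold, and 8 of 19 alternatives did not call it, with adjusted p from 0.00604 to 0.169 over all of them.

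EIF2AK4, which senses amino acid shortage through uncharged tRNA, read 7.21, 7.45 and 7.66 against 8.26, 8.19 and 7.87 on the control arrays. Again the groups did not overlap and the arrays numbered 3 were closest. The log2 fold change was -0.67 (SE 0.17, limma adjusted p = 0.0396), and 7 of 19 alternatives did not call it (adjusted p from 0.00516 to 0.155).

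EIF2AK1, the heme-regulated kinase, read 9.81, 9.97 and 9.99 on the arrays labelled TRIB3-shRNA and 10.26, 10.34 and 10.26 on the control arrays. These groups did not overlap either, yet the difference of -0.36 (95% interval -0.64 to -0.09, not adjusted for the number of genes) did not pass the test (limma adjusted p = 0.0901). It was called with array weights (adjusted p = 0.0373), with an intensity trend (0.0291) and among genes above the median level, 3 of 19 alternatives with a range from 0.0291 to 0.259.

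The called kinases shared a pattern over the arrays that DDIT3 did not show. For EIF2AK2, EIF2AK3 and EIF2AK4 the control array numbered 3 was the lowest control and the TRIB3-shRNA array numbered 3 the highest of its group. The arrays numbered 3 were 0.52, 0.19 and 0.20 apart for these kinases, whereas those numbered 1 and 2 were separated by at least 1.21, 1.07 and 0.75. With both arrays numbered 3 left out the log2 fold changes were -1.48, -1.46 and -0.90. GDF15 showed the mirror image, with its control array numbered 3 the highest control and its TRIB3-shRNA array numbered 3 the lowest of that group. ASNS had the kinases' order of arrays with far less spread: its arrays numbered 3 were 0.84 apart, against 0.95 for those numbered 1 and 2. DDIT3 did not have that order and differed by 1.11 between the arrays numbered 3. The kinase pattern was common in the table: 68.1% of the 951 genes called lower had it. Among the 484 genes called higher, 41.9% had the mirror image.

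**Figure D3:**
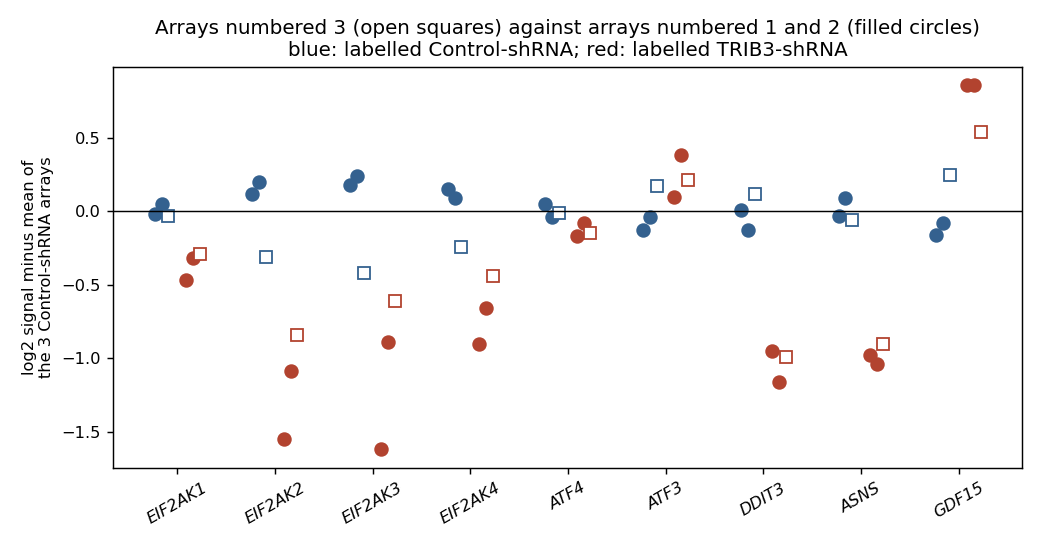
Log2 signal of the 9 genes minus the mean of the 3 control arrays, with arrays numbered 3 as open squares and those numbered 1 and 2 as filled circles. For EIF2AK2, EIF2AK3 and EIF2AK4 the open squares of the groups lie 0.52, 0.19 and 0.20 apart, while for DDIT3 they lie 1.11 apart.

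Gene span also moved with the calls. In the RefSeq table of GRCh38.p14, genes called lower spanned a median of 59.2 kb, those called higher 16.3 kb and all genes 20.7 kb. EIF2AK2, EIF2AK3 and EIF2AK4 span 57.8, 71.4 and 101 kb, EIF2AK1 36.9 kb, and ASNS 76.8 kb, while DDIT3 spans 3.93 kb and GDF15 3.02 kb. Of the uncalled transcription factors, ATF3 (log2 fold change 0.23) spans 55.4 kb and ATF4 (-0.13) 2.13 kb. With each array's trend on span removed, EIF2AK2 differed by -1.05 (limma adjusted p = 0.0147) and ASNS by -0.85 (adjusted p = 0.00506), both still called. EIF2AK3 differed by -0.92 (adjusted p = 0.0539) and EIF2AK4 by -0.53 (adjusted p = 0.0528), both just over the threshold. In the reported fit they differed by -1.04 and -0.67. GDF15 differed by 0.65 (adjusted p = 0.0251), against 0.76 in the reported fit. DDIT3, by contrast, differed by -1.14 after that step (adjusted p = 0.00246), against -1.03. The part of gene span in these differences was not tested.

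Of 7 listed regulators of these kinases 5 were measured. DELE1, the mitochondrial protein that activates HRI when mitochondria are stressed, fell (log2 fold change -0.71, SE 0.12, limma adjusted p = 0.011). It read 6.64, 6.66 and 6.56 on the arrays labelled TRIB3-shRNA and 7.32, 7.38 and 7.28 on the control arrays, so that the groups stood apart with little spread. The call was not made without Control-shRNA replicate 1 (adjusted p = 0.0594) or 2 (0.0661), nor with a replicate block (0.0553), which makes 3 of 19 alternatives in a range from 0.00271 to 0.0661. The others did not pass the test: IMPACT, an inhibitor of GCN2, was at -0.77 (adjusted p = 0.0561), OMA1, the protease that cleaves DELE1, at -0.42, the PKR inhibitor TARBP2 at 0.19 and the GCN2 activator GCN1 at 0.08. The list's median was -0.42, and 9.64% of all genes were called. The 13 listed subunits of eIF2, of its exchange factor eIF2B and of the eIF2 phosphatases, EIF2S1, PPP1R15A and PPP1R15B among them, were not analysed here, because the annotation names no feature for any of them.

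PKR is an interferon-stimulated gene, so the other genes of that class were read beside it. Of 45 listed, 30 were measured, and 1 fell and 0 rose, with 29 short of the threshold. With quantile normalization or either centring the split was 1 higher and 0 lower: SP100 was no longer called and ISG15 was. Before adjustment, 5 were higher and 3 lower at p under 0.05 in the reported limma fit. In that fit 9.64% of all 14884 genes were called, and before adjustment 1887 were higher and 2396 lower. The one that fell was SP100, a nuclear body protein (log2 fold change -0.57, SE 0.14, limma adjusted p = 0.0395), and 10 of 19 alternatives did not call it. IFIT1, a strongly interferon-induced gene, read 4.72, 4.60 and 4.73 against 4.74, 4.46 and 4.17, and its groups overlapped (log2 fold change 0.23, adjusted p = 0.376). The double-stranded RNA sensor gene RIGI was at -0.57 (adjusted p = 0.0577) and the ubiquitin-like ISG15 at 0.51 (adjusted p = 0.0563), both chosen for mention once their values were known. By sign, 22 of the 30 were higher and 8 lower, with a median of 0.15. Of these genes 9 had a mean below the average 25th percentile of the arrays.

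Among the transcription factors, ATF4, the centre of the response, was not called. It read 9.86, 9.96 and 9.88 on the arrays labelled TRIB3-shRNA and 10.08, 10.00 and 10.02 on the control arrays. Each of the former lay below each of the latter, by as little as 0.04. The difference was -0.13 (95% interval -0.40 to 0.13, limma adjusted p = 0.481) and ran from -0.24 to -0.03 over the alternatives, none of which called it. ATF3, a stress-induced factor of the same family, read 5.04, 5.32 and 5.16 against 4.81, 4.91 and 5.11, with overlapping groups. Its difference was 0.23 (95% interval -0.08 to 0.55, adjusted p = 0.307), and none of its 18 alternatives called it.

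DDIT3 encodes CHOP, a factor that ATF4 induces and that promotes cell death in prolonged stress. It read 4.80, 4.59 and 4.76 on the arrays labelled TRIB3-shRNA and 5.76, 5.62 and 5.87 on the control arrays. The groups were 0.82 apart at their closest, and each had an SD of at most 0.12. The log2 fold change was -1.03 (SE 0.13, limma adjusted p = 0.00367), and all of its 18 alternatives called it (adjusted p from 0.000992 to 0.0253). The lower group lay between the 25th percentile and the median of its arrays, and signal over background was not analysed here. MIR616, a microRNA gene that overlaps DDIT3 in the RefSeq table, was at -0.88 (adjusted p = 0.00921), but all 6 of its readings, from 2.55 to 3.63, lay below the 25th percentile of their arrays, so the size of this difference is not settled. MARS1, the measured gene on the other side, which also overlaps it, was at -0.11 (adjusted p = 0.58).

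Of 21 listed basic leucine zipper factors that can pair with these or act beside them, 13 were measured, of which 2 rose and 1 fell, and the test left 10 uncalled. ATF5, a stress factor that ATF4 and CHOP induce, rose 1.99-fold (log2 fold change 0.99, SE 0.14, limma adjusted p = 0.00553). It read 7.31, 7.09 and 6.94 against 6.22, 6.05 and 6.11 on the control arrays, without overlap, and each of its 19 alternatives called it. JUND rose by 0.69 (adjusted p = 0.0281) and ATF2 fell by 0.99 (adjusted p = 0.0361), and each was not called under 6 of 19 alternatives. NFE2L2, the antioxidant factor that PERK can act on, was at -0.70 (adjusted p = 0.0825) and its groups overlapped. It was chosen for mention once its value was known. Over the list the median was 0.32, and 9.64% of all genes were called. CEBPB and CEBPG were not analysed here.

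Of the outputs, ASNS makes asparagine and is induced by ATF4 when amino acids run short. It read 7.94, 7.88 and 8.02 on the arrays labelled TRIB3-shRNA and 8.89, 9.01 and 8.86 on the control arrays. The groups were 0.84 apart at their closest, and the SDs were 0.07 and 0.08. The log2 fold change was -0.97 (SE 0.12, limma adjusted p = 0.00365), and all of its 19 alternatives called it (adjusted p from 0.000813 to 0.0302).

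Some genes around ASNS on chromosome 7 were also called lower. Of the 20 nearest measured genes, 10 on each side, 8 were called lower, 0 were called higher and 12 did not pass the test, with a median of -0.17. The neighbour before it, SDHAF3, was at -0.80 (limma adjusted p = 0.0429) and the one after it, CCZ1P-OR7E38P, at -0.31 (adjusted p = 0.176). Around DDIT3, 3 of 20 were called lower and 1 higher, around EIF2AK4 2 were lower, around EIF2AK2 1 was lower, around EIF2AK3 0 were called, and around GDF15 2 were higher. Over all genes 6.39% were called lower and 3.25% higher. The genes next to EIF2AK2 were GPATCH11, which overlaps it (-0.35, adjusted p = 0.342), and NDUFAF7 (-0.27, adjusted p = 0.285). SPMIP9 (0.12) and RPIA (-0.01) flank EIF2AK3, and GPR176 (-0.14) and SRP14 (-0.04) flank EIF2AK4, with adjusted p from 0.528 to 0.962. The part of the neighbourhood in the ASNS difference was not tested.

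GDF15 encodes a secreted stress cytokine that ATF4, CHOP and p53 can induce. It read 9.29, 9.29 and 8.97 on the arrays labelled TRIB3-shRNA and 8.27, 8.35 and 8.68 on the control arrays, each of the former above each of the latter. It rose (log2 fold change 0.76, SE 0.16, limma adjusted p = 0.0235), whereas DDIT3 and ASNS fell. The call was not made under 6 of 19 alternatives, with adjusted p up to 0.11. MIR3189, a microRNA gene that overlaps GDF15, was at 0.64 (adjusted p = 0.115), and MIR3188, the measured gene before it, at 0.06 (adjusted p = 0.88).

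Of 8 listed genes for the receptor, processing and regulation of GDF15, 7 were measured and 1 rose. That was FURIN, a protease that cleaves proproteins of this family, by 0.67 (SE 0.16, limma adjusted p = 0.0335), and 6 of 19 alternatives did not call it. EGR1, an early response factor, was at -0.40 (adjusted p = 0.108) and the receptor gene GFRAL at 0.05, with all 6 readings below the 25th percentile of their arrays. Both were chosen for mention once their values were known. Over the list the median was 0.12, and 9.64% of all genes were called.

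ASNS, DDIT3 and EIF2AK2 had the smallest limma adjusted p of the outputs, transcription factors and kinases, and GDF15 was the called gene that rose. The promoters of these genes, chosen with their results known, are shown. Each is the 250 bases before the RefSeq start (GRCh38.p14), 5′ to 3′ on the gene's own strand, with motif matches in capitals. The motifs were the C/EBP-ATF response element bound by ATF4 with a C/EBP partner, TGATGNAA (reverse complement TTNCATCA), and the interferon-stimulated response element, which was taken as GAAA, 2 bases of any kind and GAAA again. Both strands were searched.
ASNS, chr7:97872409-97872658, minus strand: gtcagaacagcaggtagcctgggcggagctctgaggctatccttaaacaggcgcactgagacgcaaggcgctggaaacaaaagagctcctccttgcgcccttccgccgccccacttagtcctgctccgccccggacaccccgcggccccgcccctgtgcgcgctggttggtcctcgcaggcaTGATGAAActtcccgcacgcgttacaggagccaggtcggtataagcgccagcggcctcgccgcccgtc
DDIT3, chr12:57520515-57520764, minus strand: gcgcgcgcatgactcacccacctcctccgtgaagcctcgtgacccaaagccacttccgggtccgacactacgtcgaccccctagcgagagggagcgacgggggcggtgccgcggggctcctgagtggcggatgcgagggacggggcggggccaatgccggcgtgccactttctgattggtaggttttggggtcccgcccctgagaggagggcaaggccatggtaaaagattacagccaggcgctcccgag
EIF2AK2, chr2:37156981-37157230, minus strand: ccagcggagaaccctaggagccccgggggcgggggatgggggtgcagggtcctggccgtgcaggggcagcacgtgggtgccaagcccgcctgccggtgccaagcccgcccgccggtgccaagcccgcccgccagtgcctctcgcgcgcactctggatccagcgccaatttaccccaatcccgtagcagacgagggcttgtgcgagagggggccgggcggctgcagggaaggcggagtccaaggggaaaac
GDF15, chr19:18385908-18386157, plus strand: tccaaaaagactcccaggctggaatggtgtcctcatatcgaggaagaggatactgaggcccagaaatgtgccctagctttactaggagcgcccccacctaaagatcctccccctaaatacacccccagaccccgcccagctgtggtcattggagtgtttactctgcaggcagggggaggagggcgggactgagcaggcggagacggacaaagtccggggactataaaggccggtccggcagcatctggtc
ASNS held TGATGAAA, 68 to 61 bases before its start, and the other 3 windows held no match to either motif. Of the 10 genes of the rule, 9 had a promoter in the table; that of EIF2AK1 was missing. The C/EBP-ATF element was found in 3 of the 9: ATF3 (TGATGGAA, 191 to 184 bases before the start), CHAC1 (TTGCATCA, 209 to 202 bases before) and ASNS. Over 27305 promoters of the same length, 1 for each gene, 3.19% held it. The interferon element was in 0 of the 9 and in 3.07% of all promoters, and no window of these genes held overlapping matches. Only the 250 bases before the start were searched, although the sequences used run to 300 bases. An element farther upstream, across the start or after it was therefore not looked for. The EIF2AK2 window ends in gaaaac, where an interferon element could begin, and the bases that follow were not searched. The counts of matches hold for these windows only. A gene's first listed start was used.

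Other targets of ATF4 and CHOP were read beside these genes. Of 28 further targets listed, 15 were measured, of which 1 rose and 1 fell, and 13 were not called. Over all genes 9.64% were called, 3.25% higher and 6.39% lower. Their median was -0.11. The one that rose was ATF5, which is also on the leucine zipper list. IARS1, the isoleucyl-tRNA synthetase gene, read 8.84, 9.40 and 9.43 on the arrays labelled TRIB3-shRNA and 10.80, 10.68 and 10.71 on the control arrays, and fell 2.83-fold (log2 fold change -1.50, SE 0.17, limma adjusted p = 0.003). No array of its groups overlapped, and all of its 19 alternatives called it. SESN2, which restrains growth signalling under stress, was at 0.43 (95% interval 0.00 to 0.86, adjusted p = 0.173) and DDIT4, which does so too, at -0.15 (adjusted p = 0.643). For both, the groups overlapped.

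Other genes of amino acid synthesis, many of which ATF4 induces together with ASNS, did not pass the test. Of 15 listed, 9 were measured and 0 passed limma's test in either direction, and 0 had an unadjusted p under 0.05. Of all 14884 genes 9.64% passed, and before adjustment 1887 were higher and 2396 lower at p under 0.05. PHGDH, the first enzyme of serine synthesis, read 8.48, 8.54 and 8.32 against 8.33, 8.31 and 8.56 (log2 fold change 0.04, 95% interval -0.26 to 0.35, adjusted p = 0.865). PSAT1, the next enzyme, was at -0.17 (95% interval -0.51 to 0.16, adjusted p = 0.467). For both the groups overlapped. The list's median was -0.03, and 0.07 after centring on the 75th percentile, against -0.97 for ASNS on the deposited values.

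In the ATF6 and IRE1 arms of the unfolded protein response, which run beside PERK, 12 of 23 listed genes were measured, and 1 rose and 1 fell, with 10 not called. WFS1, a membrane protein of the endoplasmic reticulum, rose by 0.87 (SE 0.17, limma adjusted p = 0.0195). SEL1L, which helps to remove misfolded protein, fell, with a log2 fold change of -0.85 (SE 0.18, adjusted p = 0.0233). Both were not called under 6 of 19 alternatives. In the reported fit 9.64% of all genes were called. XBP1, the factor spliced by IRE1, was at -0.13 (adjusted p = 0.529), and HSPA5 was not analysed here. The list's median was -0.03, and 0.07 after centring on the 75th percentile.

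**Figure D4:**
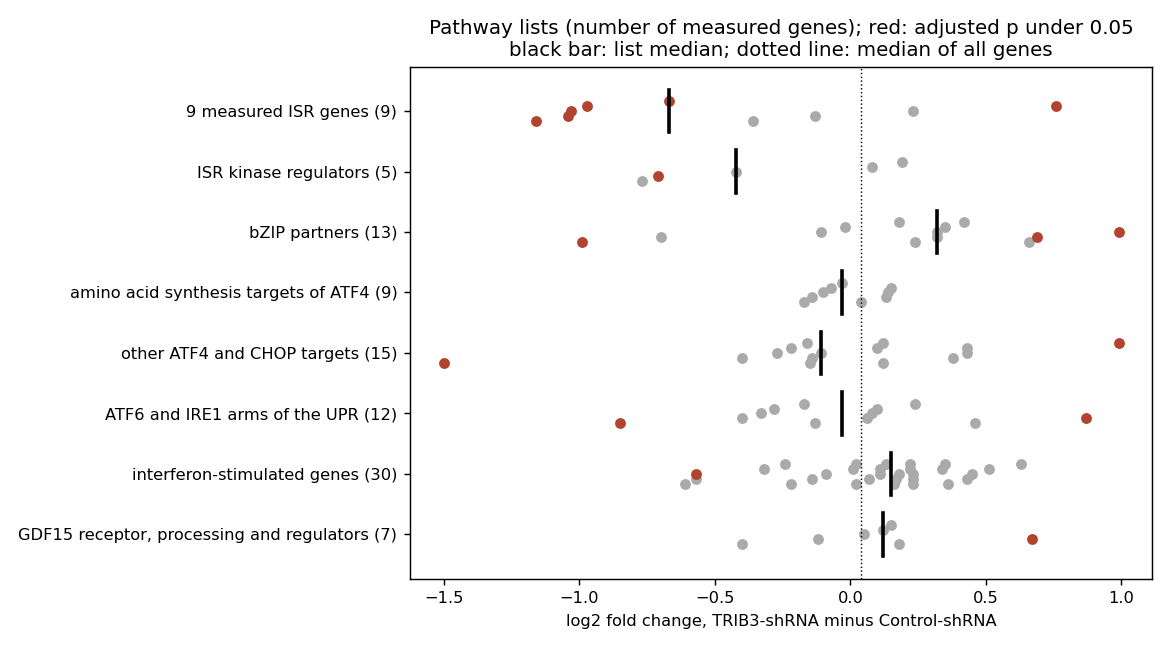
Log2 fold change (TRIB3-shRNA minus Control-shRNA) of every measured gene of each pathway list, 1 point a gene, with called genes in red, a black bar at the list's median and a dotted line at the median of all genes (0.04). The medians run from -0.67 for the 9 stress response genes to 0.32 for the leucine zipper partners.

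Over the 7 lists with measured genes, 90 different genes were tested, of which 4 rose and 5 fell. That is 9 of 90, against 9.64% of all genes called, so the lists as a whole were called about as often as the rest of the table.

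The genes with the most similar profiles were found for each called gene. Likeness was the root-mean-square difference of log2 values over the 6 arrays, each gene centred on its own mean, among genes above the median level. For EIF2AK2 the nearest were MMUT (0.0424), UBN2 (0.0441) and NF1 (0.0473). For EIF2AK3 they were METTL4 (0.0338), USP24 (0.0444) and ATR (0.0476), and for EIF2AK4 NUSAP1 (0.0323), SRFBP1 (0.0379) and THUMPD3 (0.0383). RNF157 (0.0652), HDAC6 (0.108) and PODXL (0.114) were nearest to DDIT3, and NCOA2 (0.0662), BBS2 (0.0691) and PODXL (0.0755) to ASNS. PODXL was thus the one gene named for more than one of them. GDF15 was most like MKNK2 (0.0306), CAVIN1 (0.0456) and CSRP1 (0.0502), and with 6 arrays in 2 groups such likeness includes the group difference itself.

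**Figure D5:**
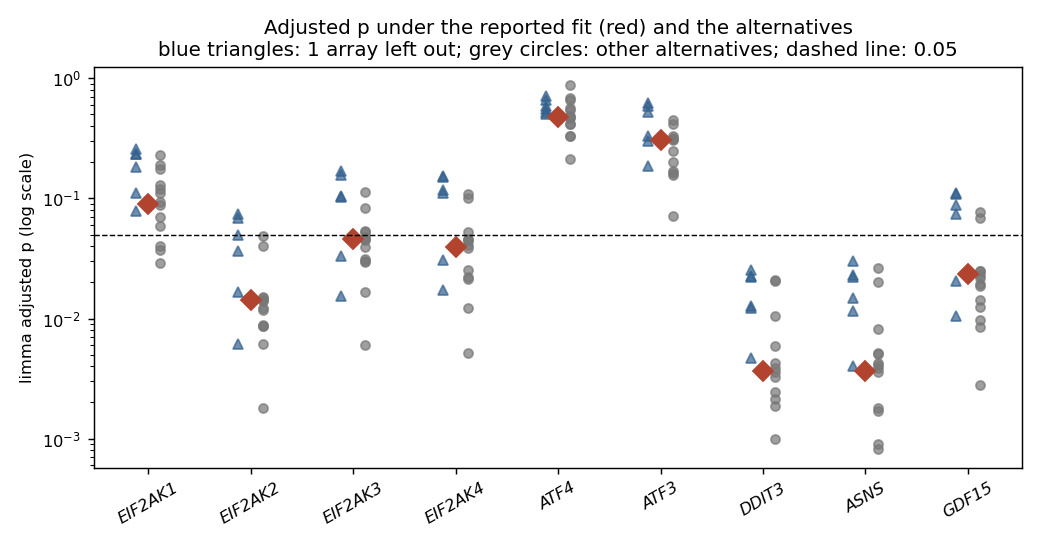
Limma adjusted p (log axis) of each of the 9 genes in the reported fit (red diamonds), with 1 array left out (blue triangles) and under the other alternatives (grey circles), with a dashed line at 0.05. All points of DDIT3 and ASNS lie below the line, and those of EIF2AK3, EIF2AK4 and GDF15 lie on both sides.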

How the data were processed

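The authors deposited log2 signals of 53617 features on 6 arrays. The submitters' processing notes name RMA and Affymetrix Expression Console 1.4.1, and RMA is a method of background correction, quantile normalization and probe summary. That values are log2 was judged from their range. No build was given in the sources used here. Groups come from sample titles. The annotation paired 16098 features with 1 symbol, 0 with several and 37519 with none. All 16098 matched RefSeq (GRCh38.p14) by gene ID, and the brightest feature of a gene was kept.

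The comparison used limma's moderated test (version 3.58.1, R 4.3.3) with the group as its sole term, two-sided and without a filter on dim features. Benjamini-Hochberg adjustment ran over 14884 genes, with calls at 0.05. The fit was also run on simulated data with independent noise for each gene and array. That run held no pattern shared over arrays, so it cannot show how calls hold under one. Figures and counts used Python 3.11.15. Genes named were all members, up to 4 called genes of each list, fixed regulators, the 3 nearest profiles of a called member and its chromosome neighbours; others are marked. Members and lists were chosen with earlier results of these data known. Alternatives covered scaling, filters on dim features, the variance model, array weights, features, gene span, the replicate number and leaving out arrays.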

Additional observations from a re-analysis of the deposited data

How the results depend on the processing

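The signs of the 6 called genes held under every alternative run. Of 9 genes, 6 passed the test. The count was 3 over all features, 3 with a replicate block and 2 at an adjusted p of 0.01. With 1 array left out it was 2 to 6, while calls over all genes ran from 199 to 2696. The block left EIF2AK2, DDIT3 and ASNS called. The numbers are not said to pair the samples, and deviations of same-numbered arrays correlated at -0.196, -0.0922 and -0.43. As deviations from means of 3 arrays, they cannot settle whether arrays were paired. The block called 402 genes of the whole table, against 1435 in the reported fit.

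Over all lists 9 genes were called. This count was 3 over all features, 29 with array weights, 32 with both arrays numbered 3 left out, 14 with an intensity trend and 2 with the block. It was 14 of the 79 listed genes above the 25th percentile, 17 of the 63 above the median level, and 2 to 21 with 1 array left out. Calls over all 14884 genes moved too, from 1435 to 4099 with array weights, 3392 with both arrays numbered 3 left out and 1945 with an intensity trend. By list, array weights called 3 kinase regulators, 9 leucine zipper genes, 5 ATF4 and CHOP targets, 5 genes of the ATF6 and IRE1 arms and 7 interferon-stimulated genes. With both arrays numbered 3 left out these were 3, 8, 6, 5 and 10. Above the 25th percentile 2 kinase regulators and 4 interferon-stimulated genes were called, as with an intensity trend, and above the median 2 kinase regulators, 5 leucine zipper and 5 interferon-stimulated genes. All features left 1 leucine zipper gene and 0 in the ATF6 and IRE1, interferon and GDF15 lists; the block did so too, with 0 kinase regulators. Removing the span trend left 0 interferon-stimulated genes. With 1 array left out the ranges were 0 to 3 kinase regulators, 1 to 5 leucine zipper genes, 2 to 3 ATF4 and CHOP targets, 0 to 4 genes of the ATF6 and IRE1 arms, 0 to 7 interferon-stimulated genes and 0 to 1 of the GDF15 list. The cause was not tested. Splits of calls moved with scaling: over all genes 484 were higher and 951 lower, and 853 and 825 after centring on the 75th percentile, where the all-gene median was 0.14 instead of 0.04. Medians of the 9 genes ran from -0.67 to -0.56 over the scalings. With 6 arrays precision is limited, and low signals, such as those of DDIT3 on the arrays labelled TRIB3-shRNA, are less certain because signal over background was not analysed here.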
